A study of Rattus norvegicus with 6 samples.

Results

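miR-127 and its neighbours are miRNAs of the imprinted Dlk1-Dio3 region, several of them made from the antisense strand of Rtl1. They were taken as every arm (the 5p or 3p product of a hairpin precursor) of rno-miR-127, miR-136, miR-337, miR-431, miR-433, miR-434, miR-493, miR-540 and miR-665 in the count table. This gave 16 arms of 9 precursors, out of 552 known rat miRNAs and 1071 rows in all. The samples were small RNA libraries of fibroblasts from the sciatic nerve of wild-type, untreated rats (Rattus norvegicus), all in batch 1. The age of the animals is not among the labels used here. In 3 libraries the RNA came from vesicles released by these cells (EV, called exosomes in the extraction protocol), and in 3 from inside the cells (Intracellular). Whether replicates of a group come from different animals or cultures is not among the labels, and p-values here reflect the scatter among these 6 libraries, part of which may be technical. Each level is a share of its library, so that neither the number of vesicles nor the amount of a miRNA per vesicle or per cell was measured.

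In an imprinted region, a gene is active on only 1 of the chromosomes inherited from the parents. The miRNAs of the Dlk1-Dio3 region are made from the maternal chromosome, as parts of long non-coding transcripts. Rtl1, a gene derived from a retrotransposon and needed in the placenta, is expressed from the paternal chromosome. The miRNAs cut from its antisense transcript match the Rtl1 mRNA in full and can direct its cleavage. In adult tissues miRNAs of this region are known from muscle, brain and cells of mesenchymal origin.

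In the RefSeq annotation (build GRCr8) the 9 precursors lie in the order miR-493, miR-337, miR-540, miR-665, miR-431, miR-433, miR-127, miR-434 and miR-136. The last 5 lie inside the span of Rtl1, and the other 4 lie before it. The RefSeq table held a mature sequence for 14 of the 16 arms, all on the plus strand between chr6:134314744-134314765 (miR-493-5p) and chr6:134331383-134331404 (miR-136-3p). All 14 were identical to the sequences deposited with the counts, which carry no coordinates. The arms rno-miR-127-5p and rno-miR-136-5p are given by name. The sequences below are those of some of the 14 arms, 5′ to 3′. Seeds (bases 2 to 8, which pair with a target) are in capitals. None of the 14 seeds was shared with another known miRNA of the table, so these miRNAs are joined by their place in the genome and not by a common seed. Lengths ran from 21 to 23 bases. GC content had a median of 53.5% (36.4% to 63.6%), against 47.8% for all known miRNAs of the table.
rno-miR-127-3p: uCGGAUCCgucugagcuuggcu
rno-miR-136-3p: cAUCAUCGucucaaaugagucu
rno-miR-434-5p: aGCUCGACucaugguuugaacca
rno-miR-434-3p: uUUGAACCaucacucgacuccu
rno-miR-431: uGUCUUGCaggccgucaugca
rno-miR-433-3p: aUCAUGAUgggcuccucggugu
rno-miR-493-5p: uUGUACAUgguaggcuuucauu
rno-miR-493-3p: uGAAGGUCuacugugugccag
rno-miR-337-5p: cGGCGUCAugcaggaguugau
rno-miR-665: aCCAGGAGgcugaggucccuua

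Shared stretches between these sequences were short. The longest were of 9 bases: the first 9 of miR-434-3p recur at the 3′ end of miR-434-5p, and a run of miR-337-5p recurs at the 3′ end of miR-431. Such runs are well under the length of a mature miRNA, but how the authors placed reads that fit more than 1 row is not given in the sources used here. The table also holds a miRNA of the opposite strand at miR-434, that is, the minus strand. It is shown because it is the full complement of miR-434-3p (chr6:134330451-134330472, plus strand), all 22 bases pairing with it.
rno-miR-3543: caggagucgagugaugguucaaa
miR-3543 (chr6:134330451-134330473, minus strand) had 3 EV counts and 43 Intracellular counts, against 500 and 16643 for miR-434-3p. A second one, miR-3544, overlaps miR-337-5p over 18 of its 21 bases and had 0 and 2 counts. Counts at both places were thus almost all of the plus-strand miRNAs.

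EV libraries held 81211 to 105578 counts and Intracellular libraries 1839047 to 8859302. Counts were scaled to 1000000 per library (CPM), so that 1 count stood for 9.47 to 12.3 CPM in EV and 0.113 to 0.544 CPM in Intracellular libraries. Intracellular replicate 1 stood apart in its scaling factor by the trimmed mean of M-values (TMM), 0.557 against 0.963 and 0.935. The 7 fibroblast and mesenchymal markers were all detected and together took 435952 to 460553 CPM in EV and 474371 to 495643 CPM in Intracellular libraries. Of other cell types, the 3 liver and serum miRNAs took 11612 to 14069 CPM in EV against 397 to 476 CPM, and the 2 erythroid ones 152 to 222 against 2.03 to 5.98 CPM. The 3 muscle miRNAs took 49.3 to 152 CPM in EV against 9.06 to 12.6 CPM. The 5 neuronal and glial miRNAs in the table took 2245 to 2599 CPM in EV and 1588 to 3299 CPM in Intracellular libraries, with miR-219a-5p at 0 in EV. Leukocyte miRNAs, with miR-142-5p and miR-223-3p at 0 in EV, took 18.9 to 32.5 against 11.4 to 37.1 CPM, and endothelial ones 260 to 436 against 141 to 390 CPM. A sum need not hold for each member. With TMM, 2 of 7 fibroblast and mesenchymal markers were called higher in EV and 4 lower (edgeR adjusted p under 0.05). Of those tested, 1 of 3 liver and serum, 2 of 2 erythroid and 1 of 1 muscle miRNAs were higher. Of 4 neuronal and glial ones 1 was higher and 2 lower, and of leukocyte and endothelial ones 0. Over all 328 miRNAs tested, 25.6% were higher and 17.1% lower. The part of RNA from other cell types in the results below was not tested.

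miR-127-3p, the leading miRNA of the group, was at 10701, 10144 and 11416 CPM in EV replicates 1, 2 and 3. In Intracellular replicates 1, 2 and 3 it was at 22965, 18121 and 20322 CPM. Every EV library was below every Intracellular one. Among all rows it stood at places 18, 19 and 18 in EV and at places 10, 14 and 13 in the cells. The log2 fold change, EV minus Intracellular, was -1.67 (SE 0.29, edgeR adjusted p = 0.000159) with TMM scaling and -0.93 (SE 0.17, edgeR adjusted p = 5.53e-05) with total counts. On the CPM scale, which carries no TMM factor, the mean in EV was 0.525 times that in the cells. The call was kept in all 24 alternative fits, at -1.91 to -0.92 and an adjusted p of 1.19e-14 to 0.0064. Without Intracellular replicate 1 the log2 fold change was -1.16 (adjusted p = 1.4e-07).

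**Figure D1:**
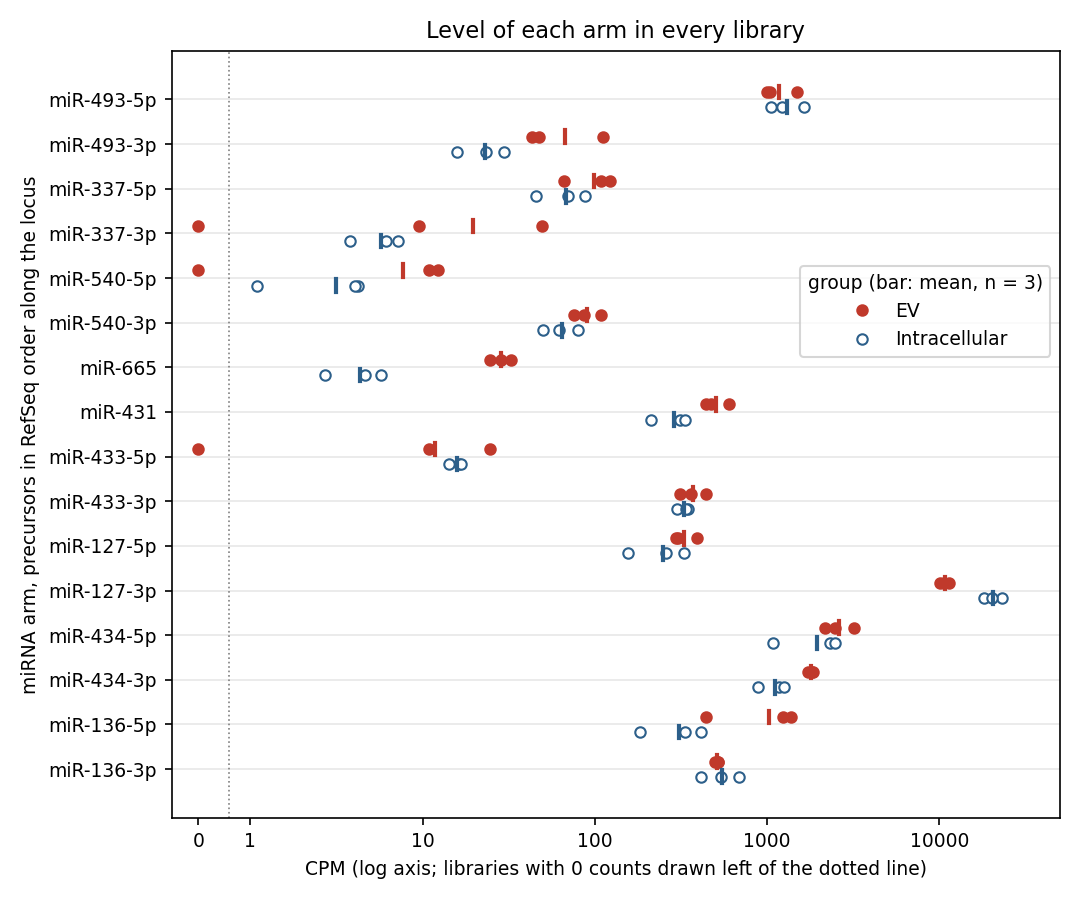
Level of each of the 16 arms in every library, in CPM on a log axis, with EV as filled and Intracellular as open points, the group means as bars and libraries at 0 counts left of the dotted line. miR-127-3p lies at 10144 to 11416 CPM in EV and 18121 to 22965 CPM in Intracellular libraries. On this scale miR-136-5p, miR-431, miR-434-3p, miR-493-3p and miR-665 lie higher in all EV libraries, as do 41.8% of all miRNAs tested.

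On the CPM scale, the other 15 arms together summed to 9555, 8496 and 7896 CPM in EV and to 4431, 6706 and 7667 CPM in the cells. The groups did not overlap, though EV replicate 3 and Intracellular replicate 3 lay close, and the mean in EV was 1.38 times that in the cells. This direction belongs to the scaling by total counts, under which the median log2 fold change over the 328 miRNAs tested was itself 0.55. With TMM, 9 of the 14 tested arms, miR-127-3p among them, were below 0, as were 176 of all 328 miRNAs tested. The 16 arms as a whole took 2.03%, 1.86% and 1.93% of the EV counts and 2.74%, 2.48% and 2.80% of the Intracellular counts. miR-127-3p thus made up 52.8%, 54.4% and 59.1% of the group's counts in EV, against 83.8%, 73.0% and 72.6% in the cells. This share needs no scaling between libraries. It averaged 55.5% ± 3.27 in EV and 76.5% ± 6.37 in the cells (SD, n = 3), a gap of -21.0 percentage points, and of -17.3 without Intracellular replicate 1. The widest exact binomial interval for a single EV library was 50.4% to 55.3% (95%, replicate 1), and it covers counting error only, since PCR reads without molecular identifiers are not independent molecules. Per count of the other arms there were 1.25 ± 0.171 counts of miR-127-3p in EV and 3.51 ± 1.45 in the cells (SD, n = 3).

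**Figure D2:**
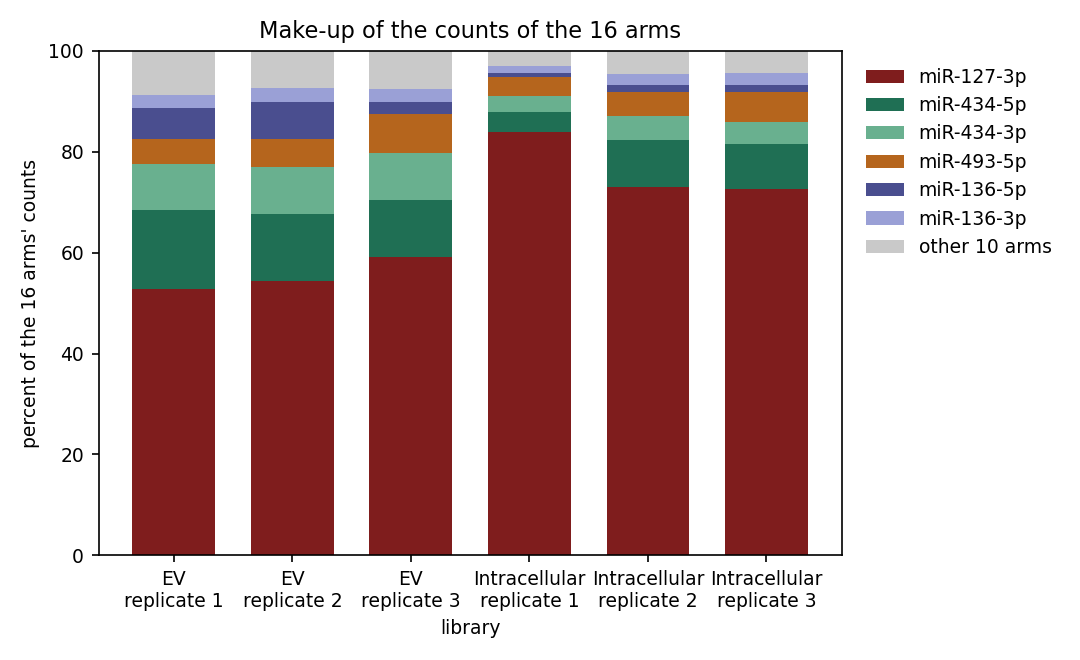
Make-up of the counts of the 16 arms in each library, as stacked percentages on an axis from 0 to 100. The lowest block, miR-127-3p, takes 52.8% to 59.1% in the EV libraries and 72.6% to 83.8% in the Intracellular ones.

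In the order of mean levels in EV, the ranges of miR-127-3p, miR-434-5p, miR-434-3p and miR-493-5p were apart at each step. Below them miR-493-5p, miR-136-5p, miR-136-3p and miR-431 each overlapped the next, as did miR-433-3p and miR-127-5p. In the cells only the step from miR-127-3p to miR-434-5p, of those among the first 4 places, was apart. There miR-434-5p, miR-493-5p and miR-434-3p overlapped in turn, as did miR-433-3p, miR-136-5p, miR-431 and miR-127-5p. miR-136-5p stood at place 5 in EV and place 7 in the cells. These are CPM of molecules of nearly equal length, but adapter ligation is known to favour some sequences, which bears on an order between miRNAs more than on 1 miRNA compared between groups.

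Of the 16 arms, 14 passed the filter on low counts. With TMM scaling 3 of them were called lower in EV (adjusted p under 0.05), against 17.1% of all 328 miRNAs tested, and 2 were called higher, against 25.6%. Of the higher calls, miR-665 passed the filter through the EV libraries alone. The members' shares, 21.4% and 14.3%, thus lay near those of all miRNAs. With total counts 1 was lower, against 0.915% of all tested, and 3 were higher, against 32.6%. The change of scaling moved the median over all tested miRNAs by 0.61 on the log2 scale, from -0.06 to 0.55, and the median over the 14 arms from -0.16 to 0.45. Of all calls, 60.0% were higher with TMM and 97.3% with total counts. CPM of the groups did not overlap for 5 arms that were higher in EV, against 41.8% of all tested, and for 1 that was lower, miR-127-3p, against 3.66%.

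**Figure D3:**
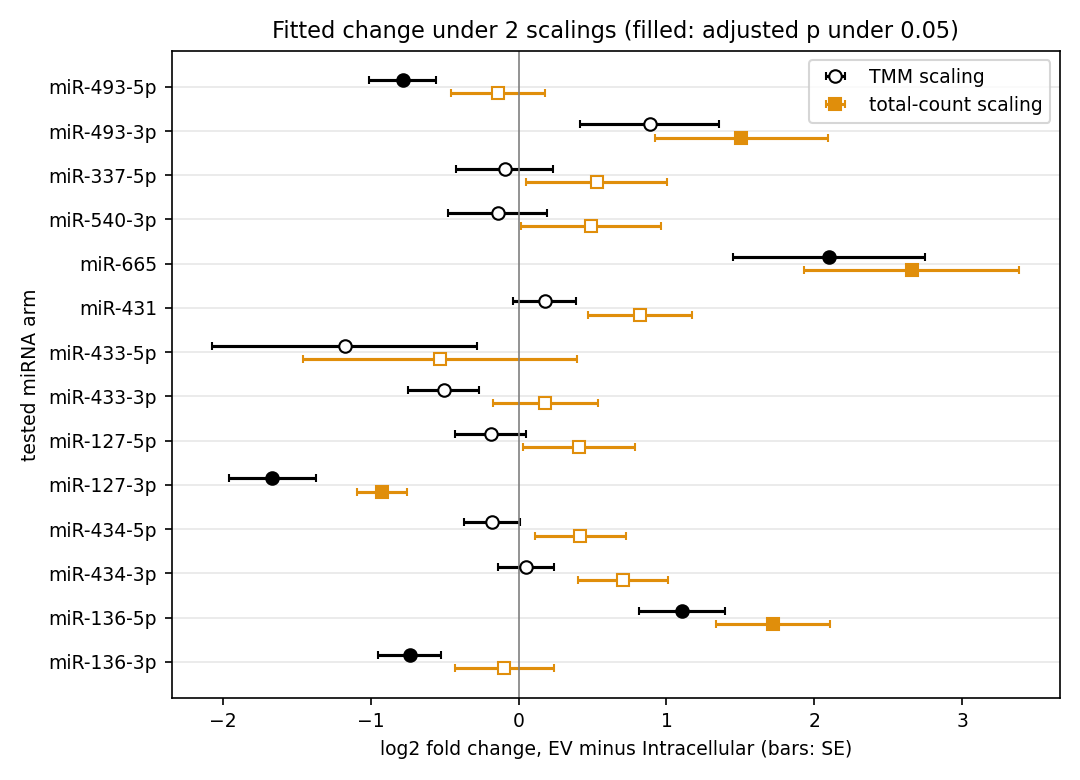
Log2 fold change (EV minus Intracellular) of the 14 tested arms with TMM scaling (circles) and total-count scaling (squares), bars being standard errors and filled marks an adjusted p under 0.05. miR-127-3p (-1.67 and -0.93) is filled on the lower side under both scalings, and miR-136-5p and miR-665 are filled on the higher side under both.

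miR-136, the last precursor inside Rtl1, was called in both of its arms. Its 5p arm was at 1244, 1373 and 444 CPM in EV replicates 1, 2 and 3 and at 183, 336 and 411 CPM in the cells. EV replicate 3 lay just above the highest Intracellular library and far below the other EV libraries. miR-136-5p rose by 1.10 on the log2 scale (SE 0.29, edgeR adjusted p = 0.00817) with TMM and by 1.72 (adjusted p = 0.000647) with total counts. The call was lost in 6 of 24 alternative fits, among them those without EV replicate 1 (0.95, adjusted p = 0.0604), without Intracellular replicate 1 (1.13, adjusted p = 0.11) and, with the tested rows kept, without EV replicate 2 (0.80, adjusted p = 0.0524) or Intracellular replicate 2 (1.09, adjusted p = 0.0709).

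The 3p arm of miR-136 was at 517, 521 and 498 CPM in EV and 413, 543 and 689 CPM in the cells. These levels overlapped. miR-136-3p fell with TMM scaling (-0.74, SE 0.21, edgeR adjusted p = 0.00958) but was at -0.10 (adjusted p = 0.866) with total counts. Its call was also lost without Intracellular replicate 3 (-0.54, adjusted p = 0.114) and, with the tested rows kept, without EV replicate 1 (-0.69, adjusted p = 0.0512).

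The ratio of the arms of 1 precursor is a within-library measure and does not depend on scaling. The 3p arm took 29.4%, 27.5% and 52.9% of the miR-136 counts in EV replicates 1, 2 and 3, against 69.3%, 61.8% and 62.7% in the cells. The more abundant arm was therefore the 5p arm in EV replicates 1 and 2 and the 3p arm in all Intracellular libraries, while EV replicate 3 had both at similar counts, 46 and 41. On the scale of log2 of 3p over 5p, with a prior count of 1, the mean was -0.82 ± 0.86 in EV and 0.87 ± 0.26 in the cells (SD, n = 3). The difference was -1.69, and -2.18 without EV replicate 3 or -1.41 without EV replicate 2. The 2-sided exact permutation p was 0.1 (0.175 adjusted over 7 precursors), and 0.1 is the smallest that 3 against 3 libraries allow.

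miR-127 kept 1 arm above the other in both groups, the 3p arm. Its 5p arm, rno-miR-127-5p, was at 296, 303 and 390 CPM in EV (24, 32 and 36 counts) and at 156, 259 and 330 CPM in the cells. With TMM its log2 fold change was -0.19 (SE 0.24, edgeR adjusted p = 0.559) and with total counts 0.41 (adjusted p = 0.485). The 3p arm took 97.3%, 97.1% and 96.7% of the miR-127 counts in EV and 99.3%, 98.6% and 98.4% in the cells, with no overlap. The log2 ratio was 4.99 ± 0.15 in EV and 6.42 ± 0.68 in the cells (SD, n = 3), a difference of -1.43 (exact permutation p = 0.1, adjusted 0.175), and of -1.04 without Intracellular replicate 1. Per count of the 5p arm there was thus less of the 3p arm in every EV library.

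miR-434, next to miR-127, was the most abundant precursor after it, with both arms at high levels. Its 5p arm was at 3177, 2472 and 2177 CPM in EV and 1088, 2310 and 2475 CPM in the cells, with overlap (log2 fold change -0.18, SE 0.19, edgeR adjusted p = 0.470, with TMM, and 0.42, adjusted p = 0.357, by total count). Its 3p arm was at 1847, 1724 and 1820 CPM in EV and 887, 1170 and 1257 CPM in the cells. Those groups were apart in CPM, but the arm was at 0.05 (SE 0.19, edgeR adjusted p = 0.838) with TMM and 0.70 (adjusted p = 0.0754) by total count. It was called higher in the fits of limma to log2(TPM + 1) (0.72, adjusted p = 0.0466) and log2(TPM + 0.1) (0.72, adjusted p = 0.0406). The 3p arm took 36.8%, 41.1% and 45.5% of the miR-434 counts in EV and 44.9%, 33.6% and 33.7% in the cells. Intracellular replicate 1 lay inside the EV range, and the log2 ratios differed by 0.23 (exact permutation p = 0.5).

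miR-431, known from the regrowth of axons of sensory neurons, where it acts on the Wnt antagonist Kremen1, has a single row. It was at 603, 474 and 444 CPM in EV and 212, 314 and 336 CPM in the cells, with no overlap. Its log2 fold change was 0.18 (SE 0.21, edgeR adjusted p = 0.535) with TMM and 0.82 (adjusted p = 0.0756) with total counts, and it was called in 0 of 24 alternative fits. With upper-quartile scaling it was at -0.07.

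miR-433-3p, known from work on kidney fibrosis, was at 443, 360 and 314 CPM in EV and 300, 350 and 336 CPM in the cells. The groups overlapped, and the log2 fold change was -0.51 (SE 0.24, edgeR adjusted p = 0.0961) with TMM and 0.18 with total counts. It was called lower with upper-quartile scaling (-0.75, adjusted p = 0.00871) and without a filter (-0.64, adjusted p = 0.0465). Its partner miR-433-5p had 2, 0 and 1 EV counts. The count of 0 in EV replicate 2 allows up to 28.4 CPM, above the 14.2 to 16.8 CPM of the cells, so that a difference in that library was not detectable at this depth. The fit gave miR-433-5p -1.18 (SE 0.90, edgeR adjusted p = 0.303) with TMM and -0.53 (adjusted p = 0.746) with total counts. The ratio of the pooled levels was 0.666 (95% exact interval 0.136 to 1.97, counting error only). The 3p arm took 94.7%, 100% and 96.7% of miR-433 counts in EV and 94.8% to 96.1% in the cells, and the difference of the log2 ratios, -0.08, turned to 0.90 with a prior count of 0.25.

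**Figure D4:**
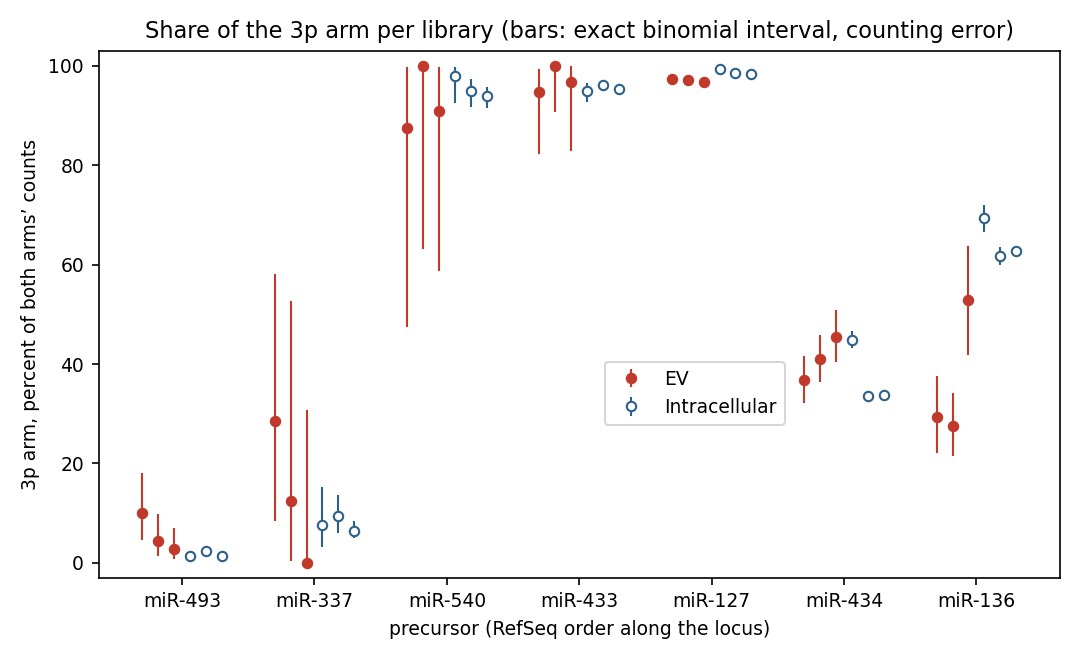
Share of the 3p arm in the counts of both arms for 7 precursors and every library, with 95% exact binomial intervals that cover counting error only. miR-136 lies at 27.5% to 52.9% in EV and 61.8% to 69.3% in Intracellular libraries, miR-127 lies at 96.7% or more in all libraries, and the EV intervals of miR-337 and miR-540 are wide.

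Before Rtl1, the first precursor is miR-493. miR-493-5p was at 997, 1042 and 1495 CPM in EV and 1057, 1213 and 1629 CPM in the cells, with overlap. It fell with TMM scaling (-0.79, SE 0.23, edgeR adjusted p = 0.0102) but not with total counts (-0.14, adjusted p = 0.794), and the call was lost without EV replicate 1 (-0.70, adjusted p = 0.0566) and, with the tested rows kept, without EV replicate 2 (-0.70, adjusted p = 0.0577). miR-493-3p was at 111, 47.4 and 43.3 CPM in EV and 15.8, 29.9 and 23.3 CPM in the cells. Every EV library was above the cells, on 9, 5 and 4 counts. Its log2 fold change was 0.89 (SE 0.47, edgeR adjusted p = 0.142) with TMM and 1.51 (adjusted p = 0.0460) by total count, and it was also called with limma on log2(TPM + 1) (1.42, adjusted p = 0.0488). The 3p arm took 10.0%, 4.35% and 2.82% of the miR-493 counts in EV and 1.47%, 2.40% and 1.41% in the cells, without overlap. The log2 ratio was higher in EV by 1.81 (exact permutation p = 0.1, adjusted 0.175), and by 1.32 without EV replicate 1.

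The other precursors before Rtl1 gave few EV counts. miR-665 had 2, 3 and 3 counts, or 24.6, 28.4 and 32.5 CPM, against 2.72, 5.73 and 4.63 CPM in the cells. It rose by 2.10 on the log2 scale (SE 0.65, edgeR adjusted p = 0.0145) with TMM, on 8 EV counts in all. It was tested only because of its level in EV: all 3 EV libraries and 0 of the Intracellular ones reached the filter's cutoff of 10.3 CPM, so that a row like this had to differ to be tested. The pooled ratio was 6.18 (95% exact interval 2.56 to 12.9, counting error only, without the scatter between libraries). The call was lost without EV replicate 1, 2 or 3 with the filter applied again (adjusted p = 0.0535, 0.07 and 0.0711), and miR-665 was not tested when at least 10 counts were asked for in 3 libraries.

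miR-337-5p was at 123.1, 66.3 and 108 CPM in EV and 45.7, 70.0 and 87.6 CPM in the cells, and its TMM value of -0.10 (SE 0.33, edgeR adjusted p = 0.828) turned to 0.53 with total counts. miR-540-3p was at 86.2, 75.8 and 108 CPM against 50.0, 80.3 and 61.97 CPM, with -0.14 (SE 0.33, edgeR adjusted p = 0.757) and 0.49 in the same order. Both overlapped between the groups. Their minor arms did not pass the filter. miR-337-3p had 4, 1 and 0 EV counts, the 0 allowing up to 32.5 CPM (pooled ratio 2.95, 95% exact interval 0.935 to 7.16). For miR-540-5p the EV counts were 1, 0 and 1 (pooled ratio 1.93, 95% exact interval 0.228 to 7.33). Both intervals cover counting error only, and both hold 1. The 3p share of miR-540 was 87.5%, 100% and 90.9% in EV and 93.8% to 97.9% in the cells, and that of miR-337 was 28.6%, 12.5% and 0% against 6.51% to 9.38%, each with overlap. Log2 ratios with a prior of 1 differed by -1.79 for miR-540 (exact permutation p = 0.1, adjusted 0.175) and by 1.28 for miR-337 (p = 0.3), but with a prior of 0.25 by -0.96 and 0.49. At 8 to 14 counts per EV library these values depend on the prior.

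Over the 7 precursors with both arms in the table, the 3p share did not overlap between the groups for 3, lower in EV for miR-127 and miR-136 and higher for miR-493. Over all 145 known precursors with both arms and a count in every library, the share was lower in EV without overlap for 14.5% and higher for 17.9%, so that 2 and 1 of 7 are no result about these precursors as a group. In miR-127 and miR-493 the minor arm held more of the counts in EV, and in miR-136 the arms changed places in 2 of 3 EV libraries.

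Other miRNAs of the Dlk1-Dio3 region, mostly of the miR-379 to miR-410 cluster, gave 44 tested arms of 68 in the table. With TMM 7 were called higher (15.9%, against 25.6% of all tested) and 6 lower (13.6%, against 17.1%). With total counts 11 were called higher (25.0%, against 32.6%) and 0 lower (against 0.915%). Their median log2 fold change was -0.14 and 0.48 under the 2 scalings, against -0.16 and 0.45 for the 14 arms described here and -0.06 and 0.55 for all tested. They took 1.98% to 2.17% of the EV counts and 1.25% to 1.99% of the Intracellular counts. The 3 most abundant were miR-379-5p (5490 ± 229 CPM in EV and 6622 ± 1735 CPM in the cells), miR-134-5p (2261 ± 610 and 985 ± 91.4) and miR-300-3p (1773 ± 263 and 1279 ± 429, SD, n = 3). Of the 44 arms, 0 lay below the cells in CPM without overlap, against 3.66% of all tested. Above the cells without overlap lay 18 (40.9%), against 41.8% of all tested. Both counts are near those of all miRNAs. Whether miR-127-3p differs from the rest of the region was not tested.

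The 5 known miRNAs whose profile over the 6 libraries was most like that of miR-127-3p were let-7e-5p, let-7f-5p, miR-361-3p, let-7i-5p and let-7a-5p. Likeness was the root mean square difference of centred log2(CPM + 1), among 147 known miRNAs with at least 100 CPM in both groups, and it was 0.230, 0.262, 0.291, 0.298 and 0.320 in that order. All were lower in EV on average, and all but let-7a-5p in every EV library, with EV minus Intracellular log2 CPM of -0.48, -0.41, -0.43, -0.36 and -0.29. On the same scale miR-127-3p was at -0.92, so that each of these 5 fell less than it did. Of the other arms described here, miR-493-5p came first, at place 18 (0.479), then miR-136-3p at 23 and miR-433-3p at 37, while miR-127-5p from the same hairpin was at place 81 (0.801) and miR-136-5p at 135 (1.46). The profile of miR-127-3p was thus nearer to that of several let-7 miRNAs than to those of the other arms described here that were compared. This holds for these 6 libraries, which share their totals and scaling. Arms under 100 CPM in either group, among them both arms of miR-337 and miR-540, miR-433-5p, miR-493-3p and miR-665, were not compared.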

How the data were processed

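The authors' deposited count table gives whole-number counts per mature miRNA in each library. Their deposited TPM table equals these counts scaled to 1000000 with no length term (largest difference 4.8e-05). The submitters' processing notes name cutadapt and build Rnor 6.0. The aligner, the miRNA database and the counter were not given in the sources used here. Columns carry shortened names, and each was assigned to the sample whose title has its group and number. Libraries were made by adapter ligation and PCR, per the labels' protocols.

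The whole table was fitted with edgeR 4.0.16 (quasi-likelihood, robust, R 4.3.3), TMM, filterByExpr (minimum count 10, total 15), EV minus Intracellular, 2-sided, without replicate block, with Benjamini-Hochberg adjustment over 328 miRNAs and a threshold of 0.05. SE came from the F statistic. The filter scales with library size, so rows with few EV counts pass. The procedure was tested on simulated data. Changes there were drawn evenly in both directions, so that the simulation does not bear on the choice of scaling. Arm ratios used exact permutation tests (scipy 1.17.1), and shares have no test. No library was a copy of another in its group (smallest chi-square over its degrees of freedom 4.02).

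Named were all 16 arms, the 5 miRNAs most like miR-127-3p and the 3 most abundant others of the region. The members, lists and tests were chosen with earlier results of these data known. Alternatives were RLE, total-count, upper-quartile and reduced TMM scaling, other filters, DESeq2 1.42.0, limma 3.58.1 (voom and log2 TPM), known miRNAs alone, a replicate block and each library left out. Leaving out libraries with the tested rows kept was added after seeing the data.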

Additional observations from a re-analysis of the deposited data

How the results depend on the processing

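Of 24 alternative fits, the call of miR-127-3p was kept in 24, and its share of the group's counts (-22.96 to -17.34 points without single libraries) and the group's share of library counts (-0.829 to -0.671) kept their direction in all alternatives run. The 3 lower calls became 1 (miR-127-3p) with total counts and with limma on log2(TPM + 1) and log2(TPM + 0.1). They became 4, with miR-433-3p added, with upper-quartile scaling and without a filter, and 1 to 3 when a library was left out. The 2 higher calls became 1 with at least 10 counts in 3 libraries, and 0 to 2 when a library was left out. They became 3 with total counts (miR-493-3p added) and with limma on log2(TPM + 0.1) (miR-434-3p added), and 4 with limma on log2(TPM + 1). The replicate block gave 3 and 2, and miR-127-3p at -1.58 (edgeR adjusted p = 1.92e-05). It changed no call of an arm. Deviations from the group means correlated at r = 0.034, 0.089 and -0.023 in same-numbered libraries and at -0.089 to 0.030 in the others. Counting error at the EV depth enters these values. They cannot show whether libraries of the same number are paired, which remains unknown.

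Signs turned only for arms not called in the fit reported. With total counts, limma at 1 and limma at 0.1 they were 0.41, 0.463 and 0.465 for miR-127-5p, 0.53, 0.545 and 0.552 for miR-337-5p, 0.181, 0.169 and 0.169 for miR-433-3p, 0.416, 0.486 and 0.486 for miR-434-5p, and 0.488, 0.495 and 0.502 for miR-540-3p. Upper-quartile scaling gave -0.067 for miR-431 and -0.195 for miR-434-3p, which was at -0.086 without a filter. miR-337-5p was at 0.031 with the stricter filter and 0.027 with known miRNAs alone. Leaving out libraries gave -0.451 to 0.079 for miR-127-5p, -0.301 to 0.143 for miR-337-5p (0.142 and, with tested rows kept, 0.0578 without Intracellular replicate 3), -0.081 to 0.241 for miR-434-3p (with tested rows kept, -0.013 without EV replicate 3 and -0.0282 without Intracellular replicate 2) and -0.342 to 0.046 for miR-434-5p. The arm ratio of miR-433 was 0.898 with a prior of 0.25 and -0.588 to 0.242 without single libraries. The cause was not tested. At 0 to 10 counts per arm and EV library, depth limits miR-665, both arms of miR-337 and miR-540, miR-493-3p and miR-433-5p.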
